A study of Drosophila melanogaster with 3 samples.

Results

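The retinal determination genes ey, toy, so, eya, dac, Optix, eyg and toe are 8 of the 13945 protein-coding genes on the 6 main chromosome arms of Drosophila melanogaster, and were taken by name. They were examined for binding of Pleiohomeotic-like (Phol), a Polycomb group protein that binds DNA through zinc fingers and is a paralog of Pleiohomeotic (Pho). Chromatin came from whole embryos of mixed sex, collected at 0 to 16 hours, of a transgenic line that stably expresses Phol fused at its C-terminal end to green fluorescent protein. It was precipitated with an antibody against that tag in 3 biological replicates, which form a single group. No other genotype, age or treatment was compared, what drives the transgene and whether the untagged phol gene is intact are not given in the labels, and the control chromatin is not analysed here. The replicates carry no statement that they came from separate collections, so their SD describes the spread between these samples.

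In the fly eye, twin of eyeless (toy) and eyeless (ey) encode the Pax6 transcription factors at the top of the network, and Toy acts upstream of ey. Ey in turn acts on sine oculis (so), which encodes a Six-family homeodomain protein, and on eyes absent (eya), whose product is a protein phosphatase that binds So as its coactivator. Dachshund (dac) encodes a nuclear cofactor that works with them. Optix encodes a second Six-family protein, and eyegone (eyg) and twin of eyegone (toe) are neighbouring Pax genes, of which eyg is known for growth of the eye disc. Polycomb group proteins keep such developmental regulators silent where they are not needed, and Pho and Phol are among the few of them that read DNA sequence. The cells that will form the eye are a small part of a whole embryo, so the peaks average over all tissues, and the cells in which a site was bound cannot be told apart.

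A summit is the position of highest signal in a peak. Each replicate has a list of 30000 peaks, a further 30000 were called on the pooled reads, and the strongest 10264 of the pooled peaks make up the list that passed the authors' reproducibility filter, called reproducible here. Peak strength is given as a rank by the authors' signal value, or as the percentile of that rank among the 30000 peaks of a replicate, so a small percentile is a strong peak. A summit was counted for a gene when it lay inside the gene or within 10 kb of its ends, and was called a promoter summit of a gene when it lay within 500 bp of an annotated start of that gene. Coordinates are on dm6. With 1 group no comparison between conditions exists, no test was run, and the values for the 8 genes are set beside those of all protein-coding genes.

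Around the 8 genes lay 32 reproducible summits, mostly away from the genes' own starts. The strongest was 5066 bp past the 3′ end of eyg, in the interval between eyg and toe, at chr3L:12457249-12457693. The next by rank were upstream of dac inside the neighbouring gene Tpr2, at the eyg promoter and upstream of toy. The genomic sequence from 50 bp before to 50 bp after these 4 summits, read 5′ to 3′ from the release 6 genome, shows what the strongest sites of the network consist of. Of 6 DNA words searched on both strands, GAGAG was found here, at the eyg promoter, and is in capitals (as its complement CTCTC on the other strand).
eyg, downstream (chr3L:12457421-12457521, + strand): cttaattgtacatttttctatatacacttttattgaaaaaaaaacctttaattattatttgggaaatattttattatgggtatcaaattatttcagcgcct
eyg, promoter (chr3L:12468146-12468246, + strand): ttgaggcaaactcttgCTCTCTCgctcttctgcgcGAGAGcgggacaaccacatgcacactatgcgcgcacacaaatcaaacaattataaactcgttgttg
toy, upstream (chr4:982924-983024, + strand): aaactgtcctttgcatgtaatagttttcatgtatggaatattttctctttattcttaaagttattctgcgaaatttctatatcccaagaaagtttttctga
dac, upstream, inside Tpr2 (chr2L:16492683-16492783, + strand): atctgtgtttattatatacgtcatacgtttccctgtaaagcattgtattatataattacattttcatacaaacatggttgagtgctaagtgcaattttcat

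GCCAT, the core of the sequence recognised by Pho and Phol, is in none of those 4 windows. The eyg downstream window has a GC content of 21.8% and holds none of the 6 words searched. GAGAG, the word bound by the GAGA factor Trl, is present at 3 overlapping or neighbouring positions at the eyg promoter.

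The longer form GCCATNTT, where N is any base, was found at 2 of the 32 reproducible summits (6.25%), near the 6.62% of all reproducible summits. It was at 6 of the 53 weaker summits of the pooled list around the same genes (11.3%), against 4.40% of all 19735 such weaker summits, a difference of a few windows that was not tested. The windows that hold it and touch no annotated exon follow, to show where the word lies in them. Capitals mark GCCAT or its complement ATGGC, the longer form where it matches, and GAGAG at 1 site in eya.
eya, intron (chr2L:6545557-6545657, + strand): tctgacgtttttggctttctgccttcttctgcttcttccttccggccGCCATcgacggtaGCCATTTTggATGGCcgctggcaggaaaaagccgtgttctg
ey, downstream (chr4:722426-722526, + strand): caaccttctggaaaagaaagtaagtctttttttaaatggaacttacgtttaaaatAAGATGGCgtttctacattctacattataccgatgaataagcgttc
eya, intron, below the threshold (chr2L:6538161-6538261, + strand): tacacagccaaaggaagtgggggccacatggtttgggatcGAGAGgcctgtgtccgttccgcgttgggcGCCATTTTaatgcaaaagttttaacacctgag
eya, upstream, below the threshold (chr2L:6548124-6548224, + strand): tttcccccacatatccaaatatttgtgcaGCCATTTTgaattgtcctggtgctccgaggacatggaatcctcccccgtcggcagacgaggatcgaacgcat
eya, farther upstream, below the threshold (chr2L:6551591-6551691, + strand): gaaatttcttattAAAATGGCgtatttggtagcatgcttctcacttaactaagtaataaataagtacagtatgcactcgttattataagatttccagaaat
toe, upstream, below the threshold (chr3L:12438675-12438775, + strand): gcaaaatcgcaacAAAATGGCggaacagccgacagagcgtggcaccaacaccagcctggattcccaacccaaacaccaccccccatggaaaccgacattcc

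Among the windows shown, the eya intron window alone holds GCCAT at 3 positions, in both orientations and close to the summit. A weaker window upstream of eya without the longer form also holds GCCAT at 3 positions in both orientations. It ranked 23787 in the pooled list and had a peak in replicate 3 only. A weaker site upstream of eya that does hold the longer form lies 1198 bp from the nearest eya start. That site ranked 11696 in the pooled list, below the last reproducible rank of 10264. The ey downstream window carries the word on the opposite strand.

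Every one of the 8 genes had at least 1 reproducible summit in the gene or within 10 kb, as did 80.3% of all protein-coding genes. With a reach of 5 kb the count was 6, without toy and toe, and in the strongest 10264 peaks of replicate 3 it was 7, without toe. A promoter summit was present at 4 of the 8 (ey, so, Optix and eyg), beside 40.8% of all genes, and absent at toy, eya, dac and toe. In the strongest 10264 peaks of each replicate, the promoter count was 4 in replicate 1, 3 in replicate 2 and 3 in replicate 3. The so and eyg promoters were occupied in all of these lists, that of ey in replicates 1 and 2, and that of Optix in replicates 1 and 3. In the full pooled list eya and toe joined them, which made 6 of 8 beside 55.4% of all genes, and toy and dac had no promoter summit in it. A summit inside the transcribed region was found in 4 of the 8 (ey, eya, dac and eyg), beside 20.4% of all genes. The 8 genes are longer than most, with a median window of 36.9 kb against 22.2 kb over all genes, so more summits per gene would come with length alone.

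**Figure D1:**
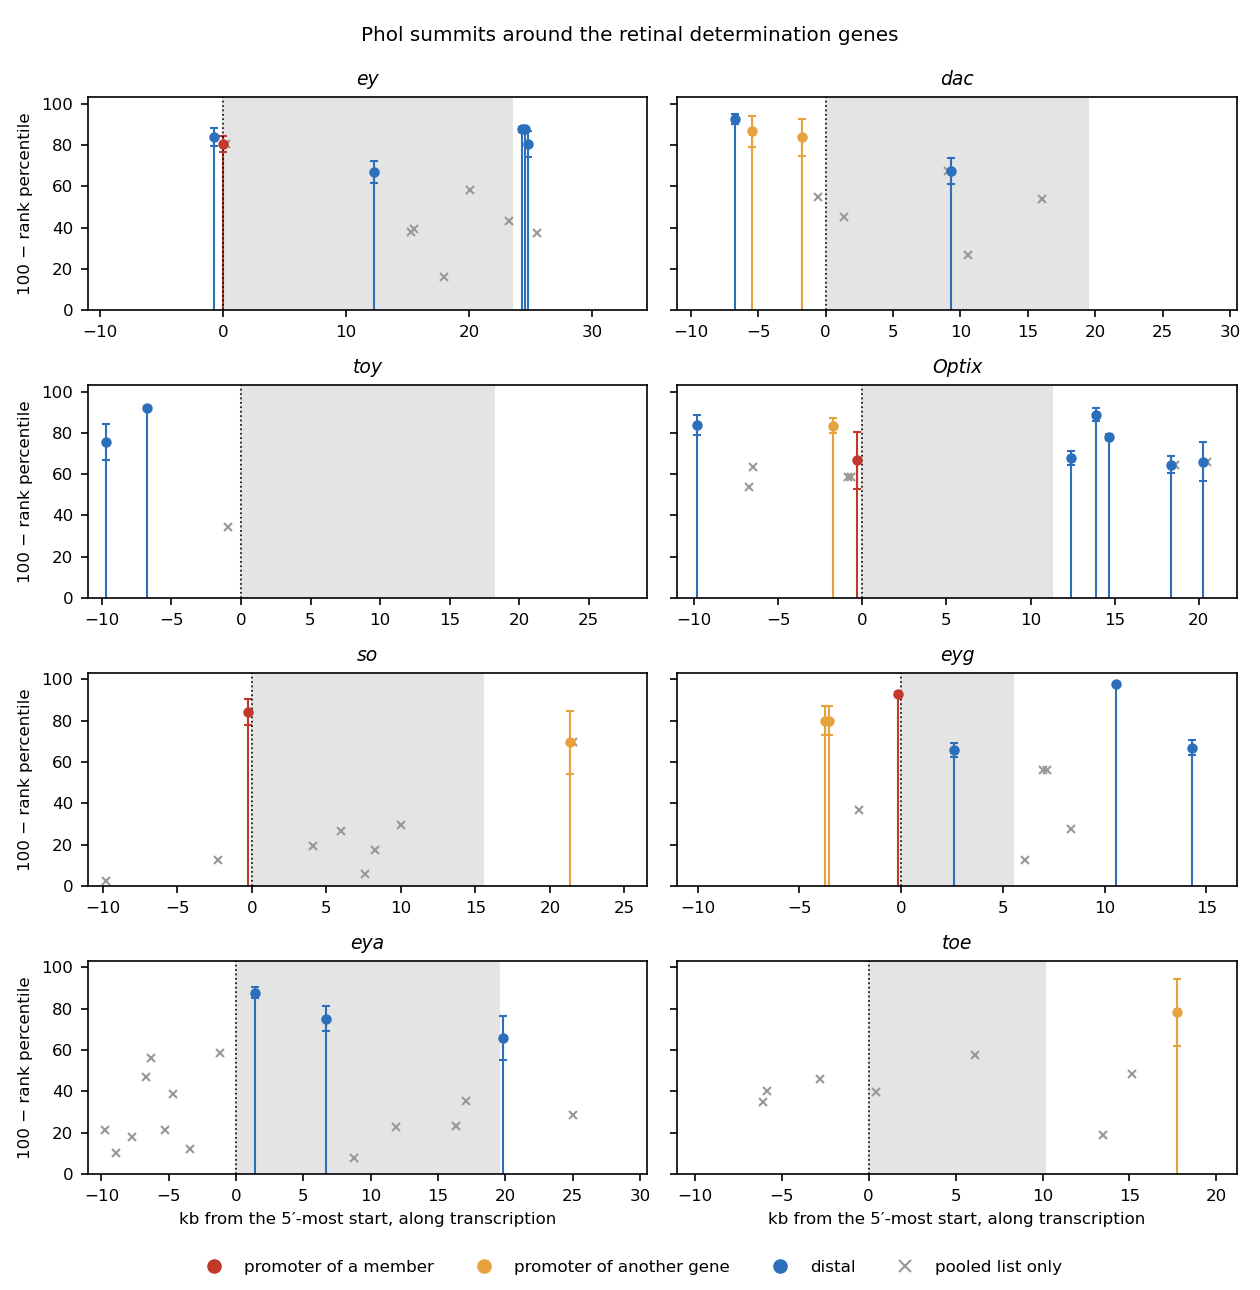
Position and strength of Phol summits around each of the 8 genes. The x axis gives kb from the 5′-most annotated start in the direction of transcription, the grey band is the gene, and the y axis is 100 minus the mean rank percentile over the replicates, so that the strongest peaks are highest; bars on points are the SD over 3 replicates (2 for the ey promoter), and crosses are peaks of the pooled list below the reproducibility threshold, drawn without error. The 4 red promoter summits belong to ey, so, Optix and eyg, and the tallest stem of all is the blue one past the 3′ end of eyg.

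Of the 32 summits, 4 (12.5%) were at the promoter of a member, 7 (21.9%) at the promoter of another gene and 21 (65.6%) distal to every annotated start. Together 34.4% of them were at a promoter, whereas 49.5% of all reproducible summits were. By annotation 23 were intergenic, 6 intronic, 2 in a noncoding exon and 1 in the 5′ UTR of a neighbour, and none fell in coding sequence. By position, 14 lay upstream of their member, 5 inside it and 13 downstream. The shares by annotation and position over all reproducible summits are not given here, so these counts only describe the windows of the members. For 18 of the 32 the nearest protein-coding start was that of a member, and the other 14 lay closer to a neighbour.

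These were mostly middling peaks. The median rank in the reproducible list was 6017 of 10264, 14 (43.8%) were among the strongest 5132 and 1 was among the strongest 1000. The mean percentile over replicates ran from 2.11 to 35.5 with a median of 19.9. Distal summits had a median percentile of 22.1, member promoters 17.7 and promoters of neighbours 20.1. By median rank in the reproducible list, promoters of neighbours were at 5036, member promoters at 6430.5 and distal summits at 6803. By these medians distal summits were the weakest class on both scales, and the promoter classes changed places. The member promoter medians rest on 4 summits. For the ey promoter the percentile averages 2 replicates and leaves out replicate 3, where it had no peak, so the order of the classes by percentile is uncertain. The strongest summit of each member had a median rank of 3182, against 1766.5 over all genes that had a summit in their window. Of the 32 summits, 31 had a peak in the full list of every replicate, and the exception was the ey promoter. This was also so for nearly all reproducible summits, 4967 of 5081 at promoters and 5081 of 5183 distal ones.

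Toy and ey, the Pax6 pair, both lie on chromosome 4, the small and largely heterochromatic chromosome. The gene toy (FBgn0019650, chr4:989725-1007922, plus strand) held no reproducible summit in its 18.2 kb and none at its start. Its window had 2, both upstream and both nearer to fuss, a gene for a corepressor of the Ski family. The stronger, 6751 bp upstream of the toy start (chr4:982820-983096, rank 2306), was at percentile 6.87 in replicate 1, 9.03 in replicate 2 and 8.05 in replicate 3, a mean of 7.98 ± 1.08 (SD, n = 3). The weaker lay 9726 bp upstream, with percentiles of 19.2, 19.6 and 34.6. The replicates placed the first within a narrow range, and replicate 3 placed the weaker one lower than the others did.

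The gene ey (FBgn0005558, chr4:697689-721173, plus strand) had 6 reproducible summits, grouped at its ends. At the start, the promoter summit lay 15 bp upstream of the annotated start (chr4:697465-697884, rank 8719), at percentile 17.0 in replicate 1 and 22.4 in replicate 2, with no peak within 250 bp in replicate 3 (mean 19.7 ± 3.82, SD, n = 2). A stronger summit 728 bp upstream (rank 4423) had percentiles of 17.6, 11.4 and 19.5, and its window holds TATCGATA, the word of the DNA replication-related element. In the body a single intronic summit (rank 9422) lay among the weakest of the list. Past the 3′ end stood a cluster of 3 summits within 1303 bp of it, at ranks 4254, 5560 and 7264, toward the start of bt, which encodes a giant muscle protein. The peaks of the first 2 overlap and match the same peak in every replicate, at percentiles 12.0, 11.3 and 13.7. The third, with GCCATNTT, was at 26.5, 16.9 and 15.1. Thus the downstream cluster ranked above the promoter of ey in the reproducible list, and all 3 replicates held it.

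Among all 80 protein-coding genes of chromosome 4 the median density was 0.379 reproducible summits per 10 kb of window, and 33 (41.2%) had a promoter summit. The density was 1.38 for ey and 0.524 for toy, both above that median.

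The Pax genes eyg and toe are neighbours on 3L with the same orientation, 29.9 kb apart between the toe start and the eyg 3′ end. This interval held 4 reproducible and 12 pooled summits. The gene eyg (FBgn0000625, chr3L:12462537-12468021, minus strand) had the clearest pattern of the network. Its downstream summit, 10.55 kb from its start and 24.8 kb from that of toe, ranked 627 in the reproducible list and was at percentile 2.05, 2.08 and 2.20 in replicates 1, 2 and 3, a mean of 2.11 ± 0.0794 (SD, n = 3). The replicates gave almost the same rank there. The promoter summit, 175 bp upstream of the start (chr3L:12468015-12468335, rank 2141), was at 6.12, 8.13 and 7.24, a mean of 7.16 ± 1.01. It was the strongest of the member promoters in the reproducible list.

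A summit in the eyg intron ranked 9561 and one 8791 bp past the 3′ end ranked 9319, both weak. A further 2 upstream of eyg belonged to the start of CG10616, where they lay 180 and 22 bp from it and matched a single peak in each replicate. With 6 summits in a window of 25485 bp, eyg reached 2.35 per 10 kb, a higher density than 88.6% of protein-coding genes had.

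The gene toe (FBgn0036285, chr3L:12422510-12432668, minus strand) lay at the other end of the range. Its window held a single reproducible summit, 71 bp from the start of SCaMC, which encodes a mitochondrial carrier, and 7597 bp past the 3′ end of toe. That summit was at percentile 10.7 in replicate 1, 14.3 in replicate 2 and 40.4 in replicate 3, a mean of 21.8 ± 16.2, and 12.5 without replicate 3. The density of 0.332 per 10 kb exceeded that of 21.7% of genes. Among weaker pooled peaks toe had 7, among them a promoter summit 439 bp inside the gene at rank 18096, with a peak in replicates 2 and 3. Its intron held the summit nearest below the reproducibility threshold, at rank 11087, while the last summit above it, downstream of Optix, had rank 9903.

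The Six-family genes so and Optix lie on the same arm, 2R, and differed in how many summits surrounded them. The promoter summit of so (FBgn0003460, chr2R:7419350-7434872, plus strand) lay 279 bp upstream of its start (rank 4142), at percentile 22.7 in replicate 1, 11.1 in replicate 2 and 13.0 in replicate 3, a mean of 15.6 ± 6.22. It was held by all replicates, with replicate 1 lowest. The only other reproducible summit was at the start of CG11123, 5825 bp past the 3′ end, at 19.0, 24.6 and 47.9. No reproducible summit lay inside so, and 5 of its 8 weaker pooled summits did.

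Optix (FBgn0025360, chr2R:8031283-8042529, plus strand) had 8 summits, the most of the 8 genes, and none was inside it. Its density of 2.56 per 10 kb was higher than that of 91.7% of protein-coding genes. The promoter summit, 304 bp upstream (rank 9005), was the weakest of the member promoters, at percentile 19.4, 47.0 and 33.5 in replicates 1, 2 and 3. The replicates disagreed on it more than on most of the other summits, with a mean of 33.3 ± 13.8.

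A stronger summit 1748 bp upstream of Optix (rank 4660) lay 102 bp from the start of the noncoding gene lncRNA:CR43724, at 17.4, 19.8 and 12.3. Farther upstream, 9809 bp from the Optix start, a distal summit (rank 4419) lay in an exon of lncRNA:CR45267, at 21.5, 15.0 and 12.4. Its nearest coding start was that of CG14762, at 7719 bp. Downstream of Optix stood 5 distal summits between 1174 and 9021 bp from its 3′ end. The strongest of these, 2642 bp past it (chr2R:8045035-8045235, rank 3006), was at 14.7, 10.5 and 8.42, a mean of 11.2 ± 3.22. The other 4 ranked between 6370 and 9903. For 4 of the 5 the nearest coding start was that of Optix, although 1 of these lay almost as near to CG12769 (8663 against 8904 bp). The remaining summit was nearer to the start of CG12769 (7001 bp) than to that of Optix (10566 bp).

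The gene eya (FBgn0000320, chr2L:6527447-6546976, minus strand) had no reproducible promoter summit, and its strongest sites were in its introns. The summit 1369 bp downstream of its 5′-most start (chr2L:6545491-6545721, rank 3358), whose window carries GCCATNTT, was at percentile 15.2 in replicate 1, 11.7 in replicate 2 and 10.01 in replicate 3, a mean of 12.3 ± 2.64. A further intronic summit (rank 6803) was at 31.4, 19.8 and 23.3, and a summit 282 bp past the 3′ end (rank 9332) was at 24.7, 32.5 and 45.7. The first of these was within the strongest 15.2% of every replicate list, and the others were weaker and more variable.

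Weaker peaks were most numerous at eya, with 14 of the 53 below the threshold, 9 of them upstream of the gene and 4 inside it. Of the 6 such windows with GCCATNTT, 3 were around eya, including that near the start of lncRNA:CR44776. The weak promoter summit of eya, at rank 28150 and 129 bp from an internal start, had a peak in replicate 3 only.

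The gene dac (FBgn0005677, chr2L:16466512-16485998, minus strand) likewise had no promoter summit. A pooled summit below the reproducibility threshold lay 532 bp upstream of the dac start, just outside the promoter window. It ranked 12635 in the pooled list and had a peak in every replicate, with percentiles of 34.0, 39.3 and 61.8. The one reproducible summit inside dac was intronic and weak (rank 9497), with percentiles of 28.3, 39.7 and 30.0 and GCCAT at 2 positions in its window. The stronger summits were upstream, in and around neighbours. At the start of Nepl8, a neprilysin-like peptidase gene, a summit 1766 bp upstream of dac was at 11.2, 11.2 and 26.8. At the start of Tpr2, which encodes a tetratricopeptide cochaperone, another was at 9.35, 8.61 and 22.1. Inside Tpr2, 6735 bp upstream of dac (chr2L:16492612-16492908, rank 1966), a distal summit was at 9.89, 6.69 and 5.41, a mean of 7.33 ± 2.31. Replicate 3 placed the promoters of the neighbours lower than the other replicates did, and the summit inside Tpr2 higher. Whether any of these acts on dac was not tested.

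Counted within the strongest 10264 peaks of each replicate, the windows of all 8 genes together held 29 summits in replicate 1, 29 in replicate 2 and 25 in replicate 3. For Optix the counts were 5, 6 and 10, a mean of 7 ± 2.65 (SD, n = 3). For ey they were 5, 6 and 4, a mean of 5 ± 1, and for eyg 5, 6 and 3, a mean of 4.67 ± 1.53. For dac they were 5, 3 and 4, a mean of 4 ± 1. The remaining genes had fewer. The count was 3, 3 and 2 at eya, 3, 2 and 1 at so, 2, 2 and 1 at toy, and 1, 1 and 0 at toe. The windows differ in length, and by reproducible summits per 10 kb eyg (2.35) lay above ey (1.38). In order of their mean counts the genes ran Optix, ey, eyg, dac, eya, so, toy and toe. Neighbours in that order differed by less than the SD of at least 1 of the pair, other than dac and eya, and toy and toe, where the gap between the means was larger than either SD. Because the genes were ordered by these same counts, the gap between the ends of the order is no separate result. The counts were at least 5 for Optix and at most 1 for toe in every replicate. Replicate 3 was the highest for Optix and the lowest for ey, toy, so, eya, eyg and toe. Over the 8 genes the median density was 0.886 reproducible summits per 10 kb, close to the 0.967 of all protein-coding genes, and 4 of the 8 were above that median.

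**Figure D2:**
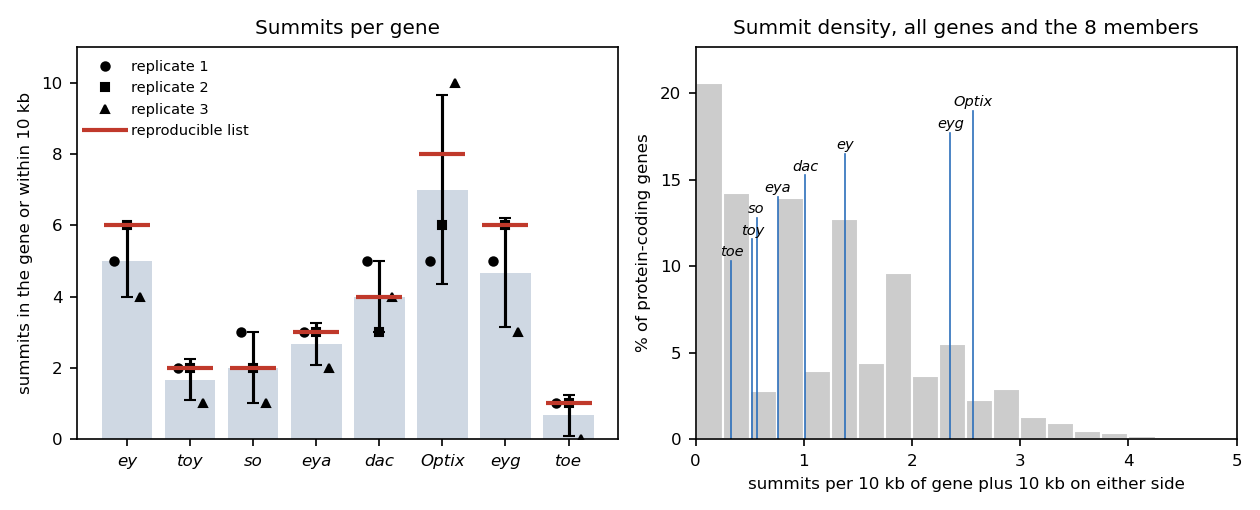
Left, summits in the gene or within 10 kb, with bars for the mean over replicates, error bars for the SD (n = 3), points for each replicate's strongest 10264 peaks and red lines for the reproducible list. Right, the share of all 13945 protein-coding genes by reproducible summits per 10 kb of window (grey), with each of the 8 genes marked by a blue line whose height has no meaning; they spread from 0.332 (toe) to 2.56 (Optix).

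**Figure D3:**
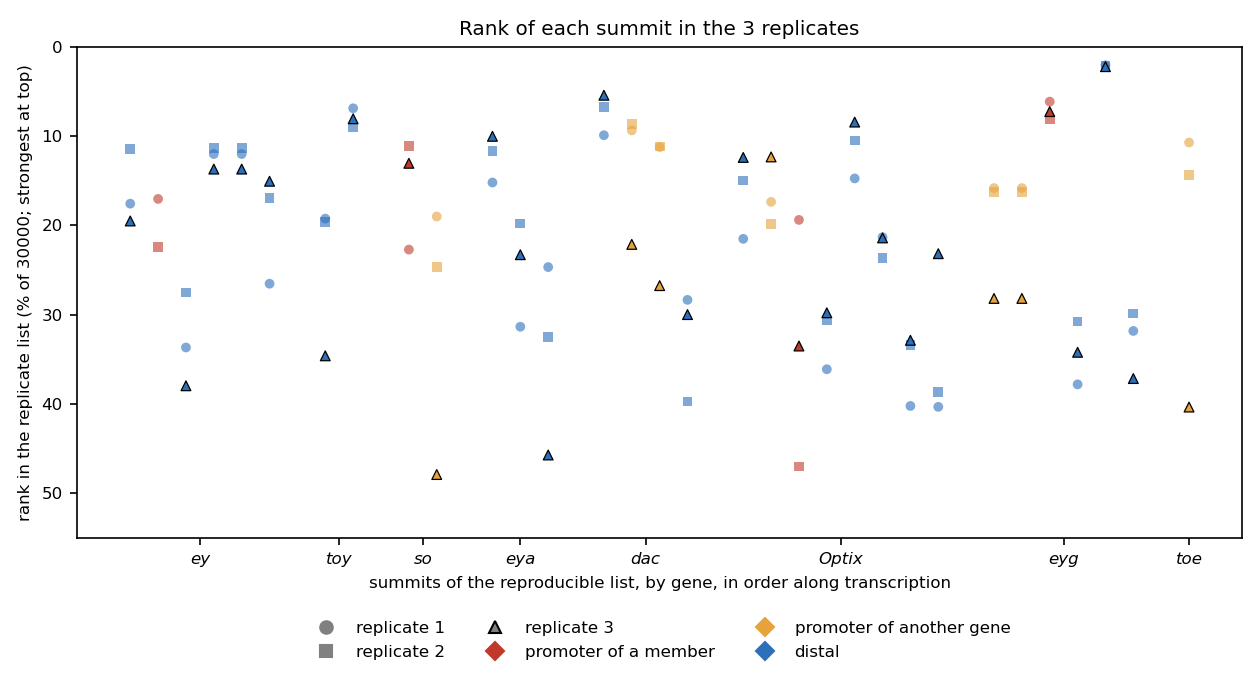
Rank percentile of each of the 32 reproducible summits in the 3 replicate lists, strongest at the top, with 1 column for each summit in order along transcription. Circles, squares and triangles are replicates 1, 2 and 3, and colours give the summit class. The symbols coincide at the eyg downstream summit near 2.11, and the triangles lie well below the other symbols at most orange columns, the promoters of neighbouring genes.

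Replicate 3 ranked the promoters of neighbouring protein-coding genes lower than replicates 1 and 2 did. All 6 such summits, which belong to 5 genes (CG10616 has 2 that share a replicate peak), moved down by 12.2 to 27.8 percentage points against the mean of replicates 1 and 2, with a median of 14.4. At the promoter of lncRNA:CR43724 the difference was -6.26 points, so replicate 3 ranked that summit higher. For the 21 distal summits around the 8 genes the median difference was -1.09 points, with 9 ranked lower in replicate 3, and for the 3 member promoters with a peak in every replicate it was 0.113. Over the whole reproducible list the median difference was 0.272 points at 4967 promoter summits, 56.5% of which ranked lower in replicate 3. At 5081 distal summits it was -1.28, with 32.2% ranked lower. Promoter summits at large thus had a small median shift to lower ranks, and many of them moved the other way. The shift at these 6, of which 2 share a replicate peak, was greater than that median. The depth of the replicates is unknown, and its part in this was not tested.

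**Figure D4:**
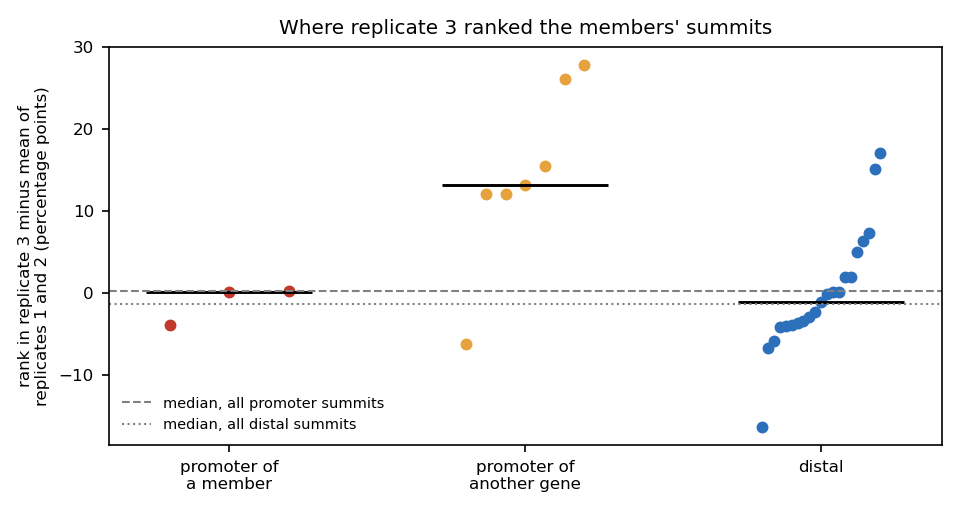
Rank percentile in replicate 3 minus the mean of replicates 1 and 2, for the 31 summits with a peak in all replicates, by class. Each point is a summit, positive values are weaker in replicate 3, black bars are medians, and the dashed and dotted lines are the medians of all reproducible promoter (0.272) and distal (-1.28) summits; 6 of the 7 points at promoters of other genes lie above 12 points.

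Among the 32 windows reaching 50 bp to either side of a summit, GCCAT was present in 9 (28.1%), against 19.6% of all 10264 reproducible windows. These 9 were 2 at eya, 3 at Optix, 2 at ey, and 1 each at dac and toy, and none was at so, eyg or toe. GCCATNTT was in 2 (6.25%) against 6.62%, near the background. GAGAG was in 5 (15.6%) against 7.83%. At promoters of any gene it was in 4 of 11 (36.4%) against 7.22% of 5081, and 3 of these were the ey, Optix and eyg promoters. Those member promoters were also richer in GC, with a median of 45.5% at the 4 of them against 34.7% over all promoter summits, and the part of base composition in the word counts was not tested. At distal summits GAGAG was in 1 of 21, and the GC median was 28.7% around the members and 29.7% over all.

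The other words were rare. TATCGATA was in 2 windows (ey upstream and CG10616) against 3.13% of all, GTGTGT in 1 (so promoter) against 5.27%, and CAGGTA, the word of the early embryonic activator Zelda, in 1 (Tpr2 promoter) against 1.80%. Words were searched on both strands, GCCATNTT windows also count for GCCAT, and a word in a window is a description of the sequence and not a measured contact.

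Below the reproducibility threshold the pooled list held 53 further summits around the 8 genes, 42 of them distal, 3 at a member promoter and 8 at promoters of other genes. Of these, 24 had a peak in all 3 replicate lists, 21 in 2 and 8 in 1. The same shares over all weaker pooled summits are not given here, so these counts only describe the windows of the 8 genes. Thus 85 pooled summits lay in the windows, of which 37.6% passed the reproducibility filter, against 34.2% of all pooled peaks. The number below the threshold was 14 at eya, 8 at so, 7 each at ey and toe, 6 at Optix, 5 each at dac and eyg, and 1 at toy. GCCAT was in 19 of the 53 windows (35.8%), against 23.01% of all weaker pooled windows. The 6 windows with GCCATNTT include a coding exon of dac (rank 13027) and a coding exon in the ey gene (rank 11941). At toy, by contrast, the complete pooled list added a single summit, which lay upstream, so no pooled summit was inside the gene.

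Other genes of eye development, listed by role, give the surroundings of the network. Of 9 partners and regulators, 4 had a reproducible promoter summit: exd, a Hox cofactor gene (rank 7870), dan, which encodes a nuclear factor of the early eye disc (rank 3301), nmo, a kinase gene (rank 2429), and Six4, the third Six-family gene (rank 4542). The 5 without were tsh, tio, hth, danr and hbn, although the long hth window held 20 summits. Of 15 factors of retinal differentiation, 6 had one, which were da (rank 42), oc (rank 744), B-H1 (rank 1406), ro (rank 2966), salr (rank 5202) and ss (rank 7204). The daughterless gene da, a broadly expressed partner of proneural proteins, was at percentile 0.0933, 0.140 and 0.187 in the replicates, far above every retinal determination gene. Of 11 photoreceptor proteins, the opsin gene Rh5 alone had one (rank 7633). Together 11 of these 35 genes (31.4%) had a promoter summit, beside the 40.8% of all genes given above, and the replicates gave 11, 11 and 10.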

How the data were processed

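The labels describe 3 biological replicates of chromatin immunoprecipitation with an anti-GFP antibody, sheared by sonication to a size range of 200 to 800. The authors deposited 5 peak lists on dm6, and the signal value of each peak is theirs, on a scale that no source states, and served to rank peaks within a list. For aligner, peak caller, reproducibility threshold and read depth, the sources used here give no value, so no interval could be set on single peaks. Pooling gives deeper replicates more weight. The summit was read as the peak's start plus its offset. Genes came from Ensembl release 115 and sequence from RefSeq's release 6 genome, where no peak ran past a chromosome end and 99.5% of 30748 coding transcripts began with ATG. Replicate peaks within 250 bp were matched, so overlapping reproducible peaks can share one. Python 3.11.15, pandas 2.3.3 and numpy 2.4.6 were used, and the scripts were tested on simulated data. All 8 members are named, with neighbours whose start is within 500 bp of or nearest to a summit and other eye genes with a promoter summit. The members and lists were chosen with earlier results of these data known. Alternatives varied the list, the reach, the promoter, matching and word windows, and the replicates.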

Additional observations from a re-analysis of the deposited data

How the results depend on the processing

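Of 137 recomputed values, 39 moved, by a ratio over 1.5 for a count and by at least the replicate SD for other values. Percentages here are shares of the summits that lay at member promoters. With the strongest 5132 peaks, 2 members had a promoter summit and there were 14 summits, 14.3%, 0.396 per 10 kb, a median percentile of 12.9, GCCAT in 2, GCCATNTT in 1 and 7 other eye genes. The full pooled list gave 85 summits, 8.24%, 2.90 per 10 kb, percentile 42.3, GCCAT in 28, GCCATNTT in 8 and 17 other eye genes. A promoter window of 200 bp gave 2 members, 6.25% and 7 other eye genes, and one of 1000 bp gave 15.6%. A reach of 5 kb gave 21 summits, 19.0% and 6 members with a summit, and a reach of 20 kb gave 49, 8.16% and 1.06 per 10 kb. Inside the gene there were 4 members with a summit, 5 summits, 0% at member promoters, 0.213 per 10 kb, percentile 32.7, GCCAT in 2 and GCCATNTT in 1. With a member as nearest coding start there were 18 summits, 22.2%, percentile 23.5 and GCCATNTT in 1. Replicate 2 alone gave 10.3% at member promoters, and replicate 3 alone a density of 0.713 and 7 members with a summit. Leaving out 1 replicate at a time kept the reproducible list and dropped summits without a peak in both other replicates. It gave 9.68% to 12.5% at member promoters. Little could change, because 31 of the 32 summits had a peak in all 3 replicates. The cause of these shifts was not tested. Added after the data were seen, joining overlapping peaks gave 29 summits, and reading the summit 1 bp further left 32 summits and 4 promoters. No paired analysis was possible because the 3 replicates form a single group. Ranks within lists of fixed length carry no absolute occupancy, and a gene without a reproducible summit is not shown to be unbound.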
